A study of Homo sapiens with 12 samples.

Results

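The genes described here are 10 genes of epithelial and mesenchymal identity, listed by symbol and found in the count tables by their Ensembl identifiers, each of which matched 1 of 57773 genes. They are the adhesion genes CDH1 (ENSG00000039068) and EPCAM (ENSG00000119888), the epithelial transcription factor GRHL2 (ENSG00000083307) and splicing factor ESRP1 (ENSG00000104413), the mesenchymal markers VIM (ENSG00000026025), FN1 (ENSG00000115414) and CD44 (ENSG00000026508), and the repressors ZEB1 (ENSG00000148516), SNAI1 (ENSG00000124216) and SNAI2 (ENSG00000019549). Of the 10, 9 had enough counts to be tested and SNAI2 did not.

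The cells were T47D, a luminal, estrogen receptor-positive line from a human breast carcinoma, in which doxycycline switches on a hairpin RNA that targets PSMD2, part of the proteasome's 19S cap. The 4 groups of 3 libraries were Lo19S cells with bortezomib, control cells with bortezomib, Lo19S cells with DMSO and control cells with DMSO. Lo19S cells (labelled Dox) had 3 days of doxycycline at 0.2 µg/ml and then 24 h without it, and control cells carried the same hairpin construct uninduced. Bortezomib, a proteasome inhibitor, was given at 20 nM for 16 h, and DMSO, its solvent, for the same time. Only the Lo19S groups had doxycycline, so effects of the drug and of the hairpin cannot be told apart, and the labels name a single hairpin target and a single line. The labels do not say whether the 3 libraries of a group are separate cultures, and the p-values therefore measure only the spread between libraries, which may be technical.

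Epithelial cells hold together through CDH1, which encodes E-cadherin, the adhesion molecule of adherens junctions, and carry EPCAM, a surface glycoprotein of simple epithelia. GRHL2 is a transcription factor that activates epithelial adhesion genes, and ESRP1 directs epithelial-type splicing, among others of CD44 transcripts. In epithelial-mesenchymal transition, zinc-finger repressors of the ZEB and SNAI families bind E-box sequences and repress CDH1 and other epithelial genes. ZEB1 and GRHL2 repress each other, and the intermediate filament VIM, the matrix protein FN1 and the hyaluronan receptor CD44 are commonly used as mesenchymal markers. T47D cells are known for high CDH1 and very low VIM. SNAI1 protein is short-lived and is degraded by the proteasome; RNA counts do not measure protein.

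Library totals ran from 7376597 to 15003480 counts. PSMD2, the hairpin's target, lay between 539.6 and 546 CPM (counts scaled to library size with TMM factors) in Lo19S cells and between 1509 and 1528 CPM in control cells with bortezomib, and between 183 and 189 CPM in Lo19S cells and 392 and 417 CPM in control cells with DMSO. All 8 luminal markers were tested, and their summed level was between 2552 and 2708 CPM in Lo19S cells and 2578 and 2659 CPM in control cells with bortezomib, against 5329.9 to 5404 CPM in Lo19S cells and 6119 to 6236 CPM in control cells with DMSO. The sums hold markers that moved apart. With bortezomib 1 of the 8 was called higher and 7 lower in each state (edgeR adjusted p below 0.05). The median log2 fold change was -1.88 in Lo19S cells and -2.49 in control cells. Under bortezomib 5 were called higher and 3 lower in Lo19S cells than in control cells (median 0.39). Under DMSO 0 were called higher and 5 lower (median -0.19). Over all genes tested 77.5% were called with bortezomib in Lo19S cells (37.8% higher, 39.7% lower) and 81.4% in control cells (39.2% higher, 42.2% lower). Between the states 43.1% were called under bortezomib and 24.7% under DMSO. PGR was at 115 CPM in Lo19S cells against 50.2 CPM in control cells under bortezomib, and KRT8 at 966 against 1133 CPM. Markers of other cell types were low. Summed over 8 fibroblast markers, levels were 44.3 to 47.3 CPM in Lo19S cells and 63.6 to 69.9 CPM in control cells with bortezomib, and 33.2 to 33.9 CPM in Lo19S cells and 26.2 to 31.7 CPM in control cells with DMSO, most of it COL1A1, at 41.5 CPM in Lo19S cells and 64.4 CPM in control cells with bortezomib, and 28.8 CPM in Lo19S cells and 27.3 CPM in control cells with DMSO. LUM was at 4.01 CPM in Lo19S cells and 1.65 CPM in control cells with bortezomib, and at 4.09 and 1.74 CPM with DMSO. COL1A2 and PDGFRA were at 0 counts in at least 1 group, THY1 had at most 7 counts in a group, and only 2 of the 8 were tested. The 5 basal or myoepithelial markers summed to at most 5.14 CPM, the 7 leukocyte markers to at most 2.42 CPM and the 4 endothelial markers found to at most 0.372 CPM in any library, with CD3E and TYROBP at 0 throughout. The part of these markers in the results below was not tested. The library that differed most from its group was replicate 3 of control cells with DMSO: chi-square over degrees of freedom was 3.64 and 3.99 in its pairs and 1.15 to 1.9 in all other pairs.

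Of the members, 4 had promoter windows in the RefSeq table, 250 bases before to 50 after an annotated start on GRCh38.p14, whereas the reads were counted on GRCh37. The windows were searched on both strands for the E-box CAGGTG or CACCTG, for the GRHL motif AACCGGTT and, added after the expression values had been seen, for the AP-1 motif TGANTCA and the heat shock element. Among all 35116 windows of this length, 20.6% held the E-box, 0.134% the GRHL motif, 7.71% the AP-1 motif and 0.49% the heat shock element. The 3 windows printed belong to the 3 of these 4 genes with the largest responses to bortezomib, and capitals mark E-boxes. For ZEB1 the window with the most E-boxes is shown, chr10:31318966-31319265 on the plus strand, with E-boxes whose first bases lie at -242, -85 and 34, counting the start as 1 with no 0. The others are CD44, chr11:35138921-35139220, and VIM, chr10:17227991-17228290, both on the plus strand.
ZEB1: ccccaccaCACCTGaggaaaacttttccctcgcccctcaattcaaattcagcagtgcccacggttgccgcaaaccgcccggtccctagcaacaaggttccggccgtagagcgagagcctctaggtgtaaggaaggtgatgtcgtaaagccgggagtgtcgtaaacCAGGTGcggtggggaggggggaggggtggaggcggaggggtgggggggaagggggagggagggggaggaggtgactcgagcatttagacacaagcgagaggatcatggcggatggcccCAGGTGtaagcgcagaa
CD44: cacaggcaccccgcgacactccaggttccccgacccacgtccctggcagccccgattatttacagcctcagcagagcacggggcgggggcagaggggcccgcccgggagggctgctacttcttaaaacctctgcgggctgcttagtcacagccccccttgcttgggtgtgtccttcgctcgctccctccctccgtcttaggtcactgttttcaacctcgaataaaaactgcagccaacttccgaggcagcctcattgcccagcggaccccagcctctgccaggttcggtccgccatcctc
VIM: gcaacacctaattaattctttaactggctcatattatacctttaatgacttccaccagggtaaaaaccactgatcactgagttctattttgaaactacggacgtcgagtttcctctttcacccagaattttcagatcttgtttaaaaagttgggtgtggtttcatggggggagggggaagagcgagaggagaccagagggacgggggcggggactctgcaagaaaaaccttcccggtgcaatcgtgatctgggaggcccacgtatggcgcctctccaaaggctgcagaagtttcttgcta
None of the 4 motifs was in the CD44, VIM or FN1 window. ZEB1 has several annotated starts and so more windows than CD44, VIM or FN1. Of its windows 2 held E-boxes, 1 in the window that starts at 31318167 and 3 in the one printed. The other ZEB1 windows held none. These matches describe letters in a window, not bound sites.

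Per kilobase of exon (GENCODE release 29 lengths), the epithelial members CDH1, EPCAM, ESRP1 and GRHL2 led the order with DMSO in both states. With bortezomib CD44 stood among them. CDH1 came first and EPCAM after it everywhere, at 172 ± 2.89 and 116 ± 3.31 CPM per kb in Lo19S cells with bortezomib, 170.4 ± 2.68 and 118 ± 4.02 in control cells with bortezomib, 114 ± 1.23 and 65.9 ± 0.615 in Lo19S cells with DMSO, and 112 ± 3.48 and 60.8 ± 3.24 in control cells with DMSO (SD, n = 3 each). With DMSO the order then ran ESRP1, GRHL2, CD44, FN1, SNAI1, VIM, SNAI2 and ZEB1 in both states. With bortezomib CD44 stood above GRHL2 in both states: it was the third gene in control cells, at 64.5 ± 0.381 CPM per kb against 42.3 ± 0.789 for ESRP1, and the fourth in Lo19S cells, at 45.5 ± 1.19 against 53.6 ± 1.73 for ESRP1. ZEB1 stood above VIM and SNAI2 with bortezomib and last with DMSO. Neighbours in the order did not overlap between libraries, except VIM and SNAI2 with bortezomib in both states, and SNAI2 and ZEB1 with DMSO in both states. The exon lengths include alternative exons and come from another annotation than the counts, so the spacing between genes is approximate.

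**Figure D1:**
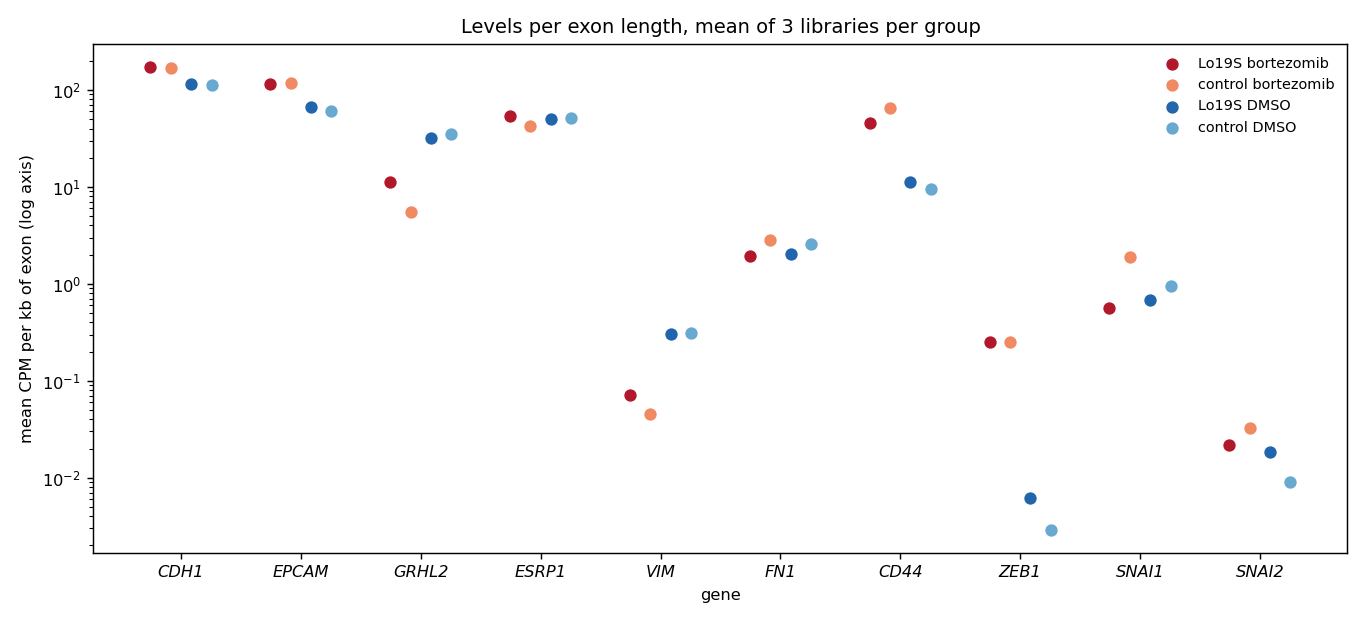
Mean level per kilobase of exon (log axis) of each gene in Lo19S and control cells with bortezomib and with DMSO, 3 libraries a group. CDH1 and EPCAM are the top genes in every group, CD44 and ZEB1 stand higher and GRHL2 lower with bortezomib, and SNAI2 is near 0 throughout.

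Bortezomib was compared with DMSO within each state. CDH1, EPCAM, CD44 and ZEB1 were higher with bortezomib in both states and GRHL2 and VIM were lower in both. In control cells all 9 tested members were called at an edgeR adjusted p below 0.05, 6 higher and 3 lower, where 81.4% of all 14714 genes tested were called, 39.2% higher and 42.2% lower. In Lo19S cells 7 of 9 were called, 5 higher and 2 lower, against 77.5% of all genes, 37.8% higher and 39.7% lower. The shares called in either direction are near the background. By direction, a larger share of the 9 members was higher and a smaller share lower than over all genes. The members' median log2 fold change was 0.09 in Lo19S cells and 0.61 in control cells, beside -0.02 and -0.04 over all genes tested. With library totals in place of TMM factors, the median of all genes moved by -0.29 in Lo19S cells and -0.38 in control cells. The calls over all genes, 5561 higher and 5847 lower in Lo19S cells and 5761 and 6215 in control cells, then became 3731 and 7918 in Lo19S cells and 3717 and 8452 in control cells. In these bulk libraries, fewer cells with a transcript and less of it per cell cannot be told apart.

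**Figure D2:**
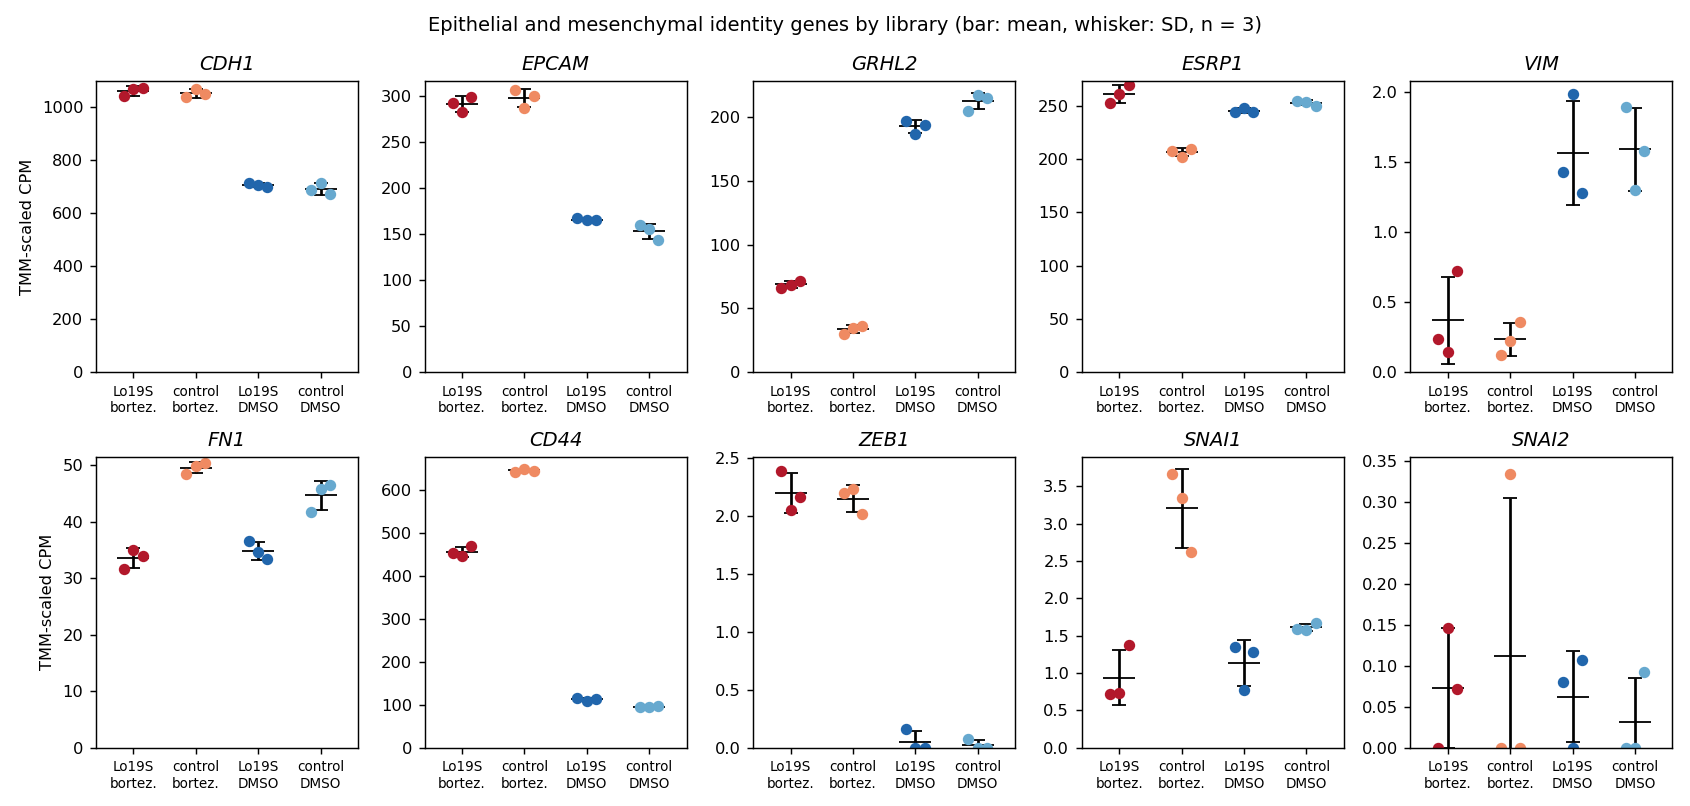
TMM-scaled CPM of the 10 genes in every library, by group, on linear axes that start at 0; bars are means and whiskers SDs of 3 libraries. CDH1, EPCAM, CD44 and ZEB1 are high in the bortezomib groups, GRHL2 and VIM are low there, and SNAI1 is highest in control cells with bortezomib.

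The adhesion genes rose to a similar level in both states. CDH1 was at 1041, 1071 and 1072 CPM in Lo19S cells with bortezomib, against 713, 708 and 698 CPM with DMSO. In control cells it was at 1038, 1071 and 1049 CPM with bortezomib, against 686, 716 and 674 CPM with DMSO. Every bortezomib library lay above every DMSO library, and the states overlapped within each agent. The log2 fold change was 0.59 (SE 0.0319, edgeR adjusted p = 6.05e-22) in Lo19S cells and 0.61 (SE 0.0319, adjusted p = 1.34e-22) in control cells. The responses differed by -0.02 (Lo19S minus control), with an approximate 95% interval from -0.11 to 0.07 (adjusted p = 0.817). With library totals the CDH1 rise was smaller, 0.3 in Lo19S cells and 0.22 in control cells.

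EPCAM was at 293, 283 and 299.6 CPM in Lo19S cells with bortezomib, against 168, 165 and 165 CPM with DMSO. In control cells it was at 307, 287 and 301 CPM with bortezomib, against 159.7, 156 and 144 CPM with DMSO. Again no bortezomib library overlapped a DMSO library. EPCAM rose by 0.82 log2 units in Lo19S cells (SE 0.0405, edgeR adjusted p = 1.62e-23) and by 0.96 in control cells (SE 0.0408, adjusted p = 2.23e-26). With library totals the rises were 0.53 in Lo19S cells and 0.58 in control cells. The difference between these responses, -0.14, did not pass (approximate 95% interval from -0.26 to -0.03, adjusted p = 0.0564). It passed with RLE factors (adjusted p = 0.0342), without control DMSO replicate 1 (0.0316) and without control bortezomib replicate 2 (0.0429). In the other alternatives run it did not pass, and the adjusted p reached 0.553. With library totals the difference was -0.05.

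GRHL2 was the epithelial member with the largest change. Its levels were 66.2, 68.3 and 71.6 CPM in Lo19S cells with bortezomib, against 197, 187 and 194 CPM with DMSO. In control cells they were 30.2, 34.9 and 36.1 CPM with bortezomib, against 205, 217 and 215 CPM with DMSO. The bortezomib groups did not overlap each other or either DMSO group, and the control libraries were the lowest. GRHL2 fell 2.79-fold in Lo19S cells (log2 fold change -1.48, SE 0.049, edgeR adjusted p = 1.54e-30) and 6.28-fold in control cells (-2.65, SE 0.0556, adjusted p = 4.39e-39). AP001207.3, an antisense gene that shares exon positions with GRHL2 in the annotation, had 7 counts in Lo19S cells with bortezomib against 67 with DMSO, and 4 counts in control cells with bortezomib against 98 with DMSO. The strand setting used for counting is not given, so reads of such pairs cannot be assigned with certainty.

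ESRP1 was at 253, 261 and 269.9 CPM in Lo19S cells with bortezomib, against 244, 248 and 244 CPM with DMSO. In control cells it was at 208, 202 and 209 CPM with bortezomib, against 255, 254 and 250.2 CPM with DMSO. The control libraries with bortezomib were below all others, and those of Lo19S cells were above their DMSO libraries. ESRP1 fell in control cells (log2 fold change -0.3, SE 0.0378, edgeR adjusted p = 1.19e-09), and by more with library totals (-0.68). It was called higher in Lo19S cells (0.09, SE 0.037, adjusted p = 0.0229), but with library totals it was called lower there (-0.2, adjusted p = 5.63e-06). The rise was also lost without low-count filtering (adjusted p = 0.534) and without Lo19S DMSO replicate 1 (0.0597) or 3 (0.055) or Lo19S bortezomib replicate 3 (0.145).

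Among the mesenchymal markers, CD44 and VIM moved in opposite directions. CD44, the receptor for hyaluronan, was at 453, 445 and 468 CPM in Lo19S cells with bortezomib, against 115, 109.7 and 114 CPM with DMSO. In control cells it was at 642, 649 and 644 CPM with bortezomib, against 95, 95.3 and 95.9 CPM with DMSO. No groups overlapped, and control cells were the highest with bortezomib and the lowest with DMSO. CD44 rose 4.04-fold in Lo19S cells (log2 fold change 2.02, SE 0.0378, edgeR adjusted p = 8.71e-41) and 6.76-fold in control cells (2.76, SE 0.0382, adjusted p = 9.47e-47). CD44-AS1, its antisense partner, had 4 counts in Lo19S cells with bortezomib and 0 in the other groups. Counts per gene do not separate the CD44 splice forms that ESRP1 acts on.

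VIM, the filament protein of mesenchymal cells, was near the limit of detection. It had 2, 1 and 10 counts in Lo19S cells with bortezomib, against 18, 23 and 12 with DMSO. Control cells had 1, 2 and 3 counts with bortezomib, against 25, 14 and 17 with DMSO. Replicate 3 of the Lo19S bortezomib group, the deepest library, held 10 of the group's 13 counts, and bortezomib and DMSO groups did not overlap in CPM. VIM fell in both states, with a log2 fold change of -1.8 in Lo19S cells (SE 0.425, edgeR adjusted p = 0.000181) and -2.72 in control cells (SE 0.509, adjusted p = 4.81e-06). Without Lo19S bortezomib replicate 3 the value in Lo19S cells was -2.92. VIM-AS1 was at 0 and 1 counts in Lo19S and control cells with bortezomib, and at 10 and 8 with DMSO.

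FN1, which encodes fibronectin, had no call with bortezomib in Lo19S cells and a small one in control cells, and both depended on the scaling. Its levels were 31.7, 35.1 and 33.9 CPM in Lo19S cells with bortezomib, against 36.6, 34.6 and 33.5 CPM with DMSO, and these groups overlapped. Control cells had 48.5, 49.9 and 50.4 CPM with bortezomib, against 41.8, 45.8 and 46.5 CPM with DMSO. The log2 fold change was -0.06 in Lo19S cells (SE 0.0712, edgeR adjusted p = 0.44) and 0.15 in control cells (SE 0.065, adjusted p = 0.0274). With library totals FN1 was called lower in both states, in Lo19S cells (-0.35, adjusted p = 2.18e-05) and in control cells (-0.23, adjusted p = 0.00145). The control call was lost without low-count filtering (adjusted p = 0.423) and without control DMSO replicate 1 (0.188) or control bortezomib replicate 2 (0.0648) or 3 (0.0743).

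Of the repressors, ZEB1 appeared with bortezomib in both states at low counts. It had 20, 14 and 30 counts in Lo19S cells with bortezomib, against 2, 0 and 0 with DMSO. Control cells had 18, 20 and 17 counts with bortezomib, against 1, 0 and 0 with DMSO. Every bortezomib library lay above every DMSO library, at 2.05 to 2.39 CPM in Lo19S cells and 2.02 to 2.23 CPM in control cells. The ratio of summed counts, scaled to library size, was 36.9 in Lo19S cells (exact 95% counting interval 9.81 to 311, edgeR adjusted p = 8.59e-11) and 74.7 in control cells (12.9 to 3005, adjusted p = 3.97e-11). ZEB1-AS1, whose exons overlap those of ZEB1 on the opposite strand, had 72 and 73 counts in Lo19S and control cells with bortezomib, against 76 and 122 with DMSO. These intervals cover counting error of the summed counts only, not the spread between libraries, and the reads carry no molecular identifiers.

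SNAI1 was called in control cells and not in Lo19S cells. It had 6, 5 and 19 counts in Lo19S cells with bortezomib (0.717, 0.732 and 1.37 CPM), against 17, 9 and 12 with DMSO (1.35, 0.775 and 1.28 CPM), and these groups overlapped. Control cells had 30, 30 and 22 counts with bortezomib (3.66, 3.34 and 2.62 CPM), against 21, 17 and 18 with DMSO (1.59, 1.58 and 1.67 CPM), without overlap. The log2 fold change was -0.14 in Lo19S cells (SE 0.361, edgeR adjusted p = 0.727) and 0.99 in control cells (SE 0.263, adjusted p = 0.000707), or -0.43 and 0.61 with library totals, where the control call held (adjusted p = 0.0316). SNAI2, a close relative that also represses CDH1, had 2, 3, 2 and 1 counts over the 3 libraries of Lo19S cells with bortezomib, control cells with bortezomib, Lo19S cells with DMSO and control cells with DMSO. All 4 sums are at or under 3 counts, so a fall or a small change could not be detected at this depth. No rise of the size of that in ZEB1 was seen. A sum of 3 counts over a group corresponds to 0.103, 0.117, 0.0895 and 0.0864 CPM in the same order.

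**Figure D3:**
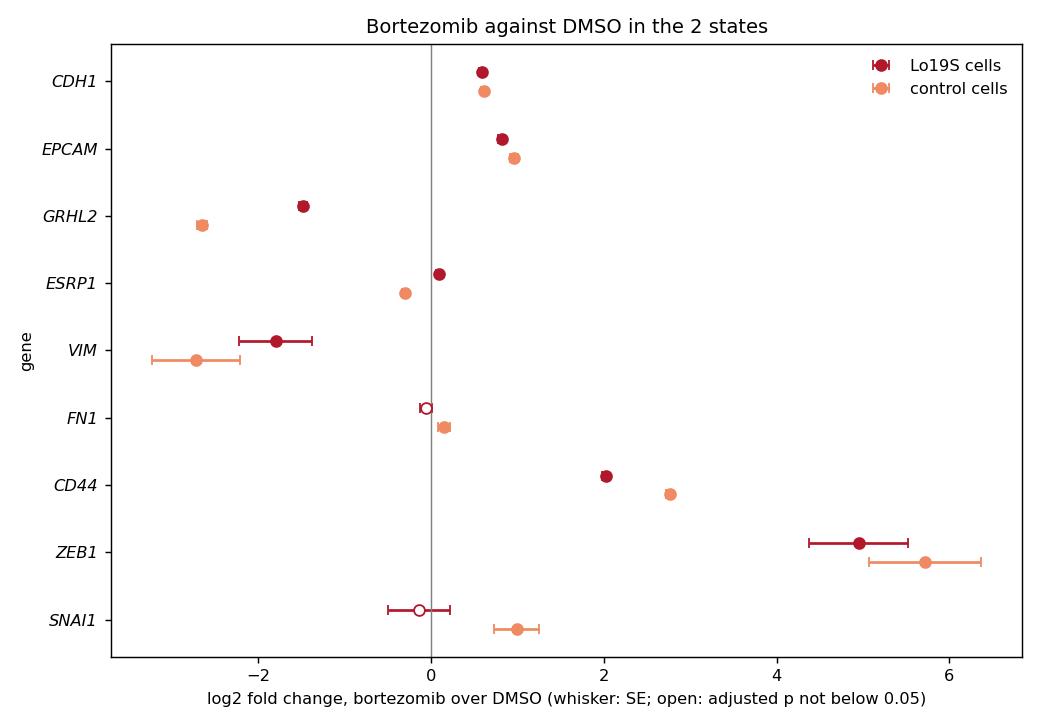
Log2 fold change of bortezomib over DMSO for the 9 tested genes in Lo19S and control cells, with SE; open circles did not reach an adjusted p below 0.05. GRHL2 and CD44 lie closer to 0 in Lo19S cells (-1.48 and 2.02) than in control cells (-2.65 and 2.76), and CDH1 is at 0.59 and 0.61. The fitted ZEB1 values rest on 2 and 1 counts with DMSO and depend on the prior count.

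The Lo19S state was then set against the control state under each agent. Under DMSO 4 of 9 members were called, 2 higher and 2 lower, where 24.7% of all genes were called, 11.7% higher and 13% lower. Their median was -0.03, beside 0 over all genes. FN1 was lower (log2 fold change -0.35, SE 0.0657, edgeR adjusted p = 4.63e-05) and CD44 higher (0.24, SE 0.0418, adjusted p = 1.18e-05), in each case without overlap of libraries. EPCAM was called higher by a small margin (0.11, SE 0.0418, adjusted p = 0.0381) and GRHL2 lower (-0.14, SE 0.0422, adjusted p = 0.0119). The EPCAM call was lost with DESeq2 (adjusted p = 0.0797), without low-count filtering (0.257), with only the 2 groups compared (0.0623) and when either control DMSO replicate 3 (0.142) or Lo19S DMSO replicate 1 (0.139), 2 (0.0871) or 3 (0.0763), or control bortezomib replicate 1 (0.0516) or 3 (0.0542), was left out. The GRHL2 call was lost without Lo19S DMSO replicate 2 (0.0905), which left 2 members called, and without control DMSO replicate 3 there were 3.

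The other members were not called under DMSO. CDH1 differed by 0.03 (approximate 95% interval from -0.03 to 0.09, edgeR adjusted p = 0.548) and ESRP1 by -0.04 (-0.11 to 0.03, adjusted p = 0.433). SNAI1 differed by -0.5 (-1.12 to 0.11, adjusted p = 0.26), although its 3 Lo19S libraries lay below its 3 control libraries. VIM differed by -0.03 with a wide interval (-0.62 to 0.57). ZEB1 had 2 counts in Lo19S cells, both in replicate 1, and 1 count in control cells, a ratio of 2.07 (exact 95% counting interval 0.108 to 122).

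Under bortezomib 5 of 9 members were called, 2 higher and 3 lower in Lo19S cells, where 43.1% of all genes were called, 22% higher and 21.2% lower. Their median was 0.01, beside 0 over all genes. With library totals the median of all genes moved by 0.11 and the calls over all genes, 3230 higher and 3119 lower, became 4920 and 1883. The epithelial regulators were higher in Lo19S cells, GRHL2 by 1.03 (SE 0.0643, edgeR adjusted p = 2.17e-18) and ESRP1 by 0.34 (SE 0.0383, adjusted p = 2.35e-10). CD44 (-0.5, SE 0.0337, adjusted p = 3.28e-17), FN1 (-0.56, SE 0.0701, adjusted p = 4.13e-09) and SNAI1 (-1.63, SE 0.303, adjusted p = 1.55e-05) were lower. Libraries did not overlap for any of these 5 genes, and each kept its call and direction in all alternatives run.

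The adhesion genes and ZEB1 were not called between the states under bortezomib. CDH1 differed by 0.01 (approximate 95% interval from -0.05 to 0.07, edgeR adjusted p = 0.787) and EPCAM by -0.03 (-0.11 to 0.05, adjusted p = 0.59). With library totals CDH1 was called higher in Lo19S cells (0.12, adjusted p = 0.0011). ZEB1 differed by 0.03, with a wide interval (-0.53 to 0.59, adjusted p = 0.941). VIM differed by 0.89 (-0.48 to 2.26, adjusted p = 0.319), and by -0.24 without Lo19S bortezomib replicate 3.

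**Figure D4:**
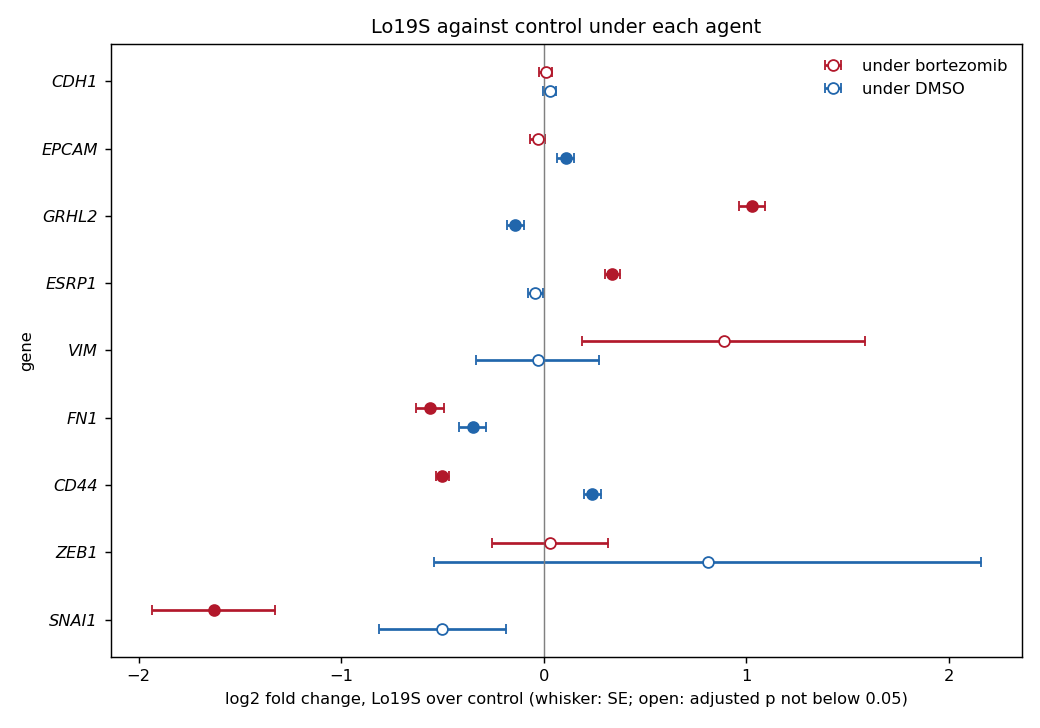
Log2 fold change of Lo19S over control for the 9 tested genes, under bortezomib and under DMSO, with SE; open circles did not reach an adjusted p below 0.05. GRHL2 and ESRP1 are at 1.03 and 0.34 under bortezomib, CD44 is at -0.5 under bortezomib and 0.24 under DMSO, and FN1 is below 0 under both.

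The difference of the bortezomib responses was tested directly as an interaction, Lo19S minus control. It was called for 3 of 9 members, 2 higher and 1 lower, where 27.8% of all genes were called, 14.4% higher and 13.4% lower, so the share is near the background. With library totals the calls over all genes, 2126 higher and 1968 lower, became 3331 and 1257. These comparisons use the same 12 libraries and are not independent of those above. GRHL2 differed by 1.17 (SE 0.0771, edgeR adjusted p = 5.54e-17), ESRP1 by 0.39 (SE 0.0528, adjusted p = 1.02e-07) and CD44 by -0.74 (SE 0.0537, adjusted p = 1.34e-15). SNAI1 differed by -1.13 (approximate 95% interval from -2.01 to -0.25, adjusted p = 0.0534), and this passed without Lo19S DMSO replicate 2 (adjusted p = 0.0293), control bortezomib replicate 3 (0.0419) or Lo19S bortezomib replicate 3 (0.0204). FN1 differed by -0.21 (-0.4 to -0.03, adjusted p = 0.0923), and passed without control DMSO replicate 3 (0.0323). In the other alternatives run SNAI1 and FN1 did not pass, and their adjusted p reached 0.181 and 0.367. With library totals FN1 differed by -0.12. Intervals were wide for VIM (0.92, -0.57 to 2.4) and ZEB1 (-0.78, -3.43 to 1.87).

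Related genes were read from 7 lists, and a fold change given for bortezomib below is log2, bortezomib over DMSO, with the Lo19S value before the control value. The counts of called genes stand beside shares of all genes tested. With bortezomib 77.5% were called in Lo19S cells (37.8% higher, 39.7% lower) and 81.4% in control cells (39.2% higher, 42.2% lower). Between the states 43.1% were called under bortezomib (22% higher, 21.2% lower) and 24.7% under DMSO (11.7% higher, 13% lower). Of 13 further epithelial transcription and splicing factors, all tested, 5 rose and 7 fell with bortezomib in Lo19S cells (median -0.53), and 4 rose and 9 fell in control cells (median -1.12), so 12 and 13 of the 13 were called. ELF5, an ETS factor of luminal progenitors, was at 17.2 ± 1.43 CPM with bortezomib against 90.4 ± 2.26 with DMSO in Lo19S cells, and at 4.44 ± 0.718 against 85.4 ± 2.18 in control cells (SD, n = 3 each). ESRP2, the paralog of ESRP1, fell (-1.28 in Lo19S cells and -2.34 in control cells), as did OVOL2, a repressor of ZEB1 (-2.53 and -3.58). KLF4 rose by 2.8 and 2.7, KLF5 by 1.85 and 2.7, and ELF3, another ETS factor, by 1.17 and 1.01. Under bortezomib 11 of the 13 were higher and 1 lower in Lo19S cells than in control cells (median 0.45), led by ELF5 (1.95), GRHL3, a paralog of GRHL2 (1.46), and OVOL2 (1.27), with KLF5 (-0.9) lower. The OVOL2 value rests on 39 counts in Lo19S cells and 14 in control cells (edgeR adjusted p = 0.0245). Its difference of responses was not called (1.05, adjusted p = 0.114). Under DMSO 0 were higher and 1 lower, TFAP2A (-0.17), and the median was -0.03.

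**Figure D5:**
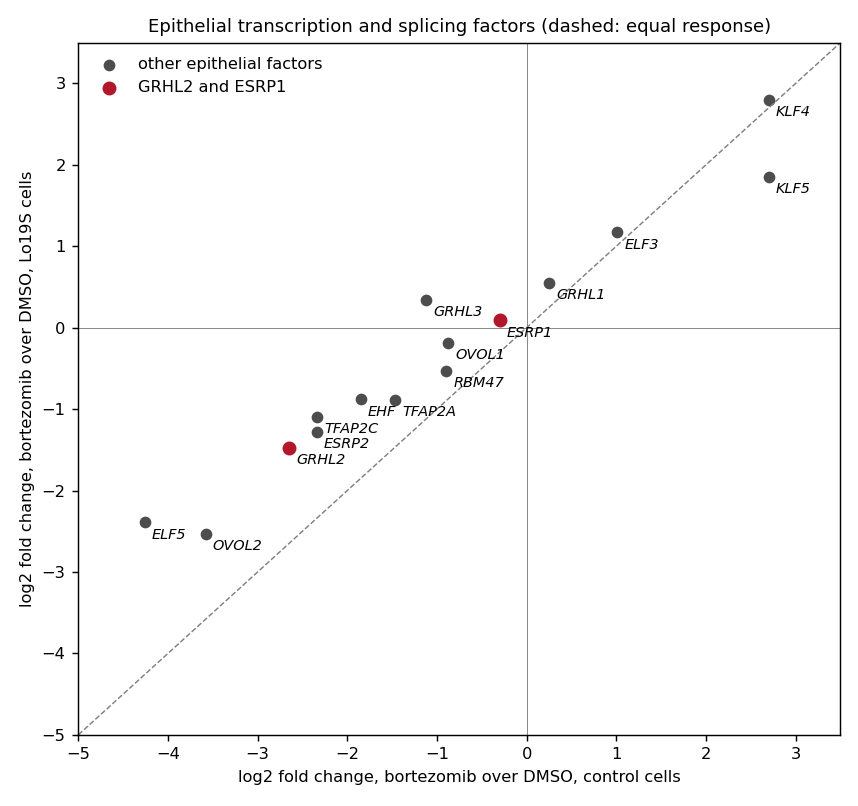
Log2 fold change of bortezomib over DMSO in Lo19S cells (vertical) against control cells (horizontal) for GRHL2, ESRP1 and 13 other epithelial transcription and splicing factors; the dashed line marks equal responses. GRHL2 (-1.48 and -2.65) and ELF5 (-2.39 and -4.26) lie above the line, and KLF5 (1.85 and 2.7) lies below it.

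Of 24 other epithelial adhesion and polarity genes, 11 rose and 9 fell with bortezomib in Lo19S cells (median 0.09), and 11 rose and 11 fell in control cells (median 0.04). The desmosomal cadherins DSC2 (1.11 and 1.21) and DSG2 (0.88 and 0.74) rose in both states, as did CTNNA1, the alpha-catenin that links E-cadherin to actin (0.79 and 0.8), the junctional molecule F11R (0.68 and 1.12) and the polarity gene CRB3 (0.63 and 0.92). The receptor ERBB3 fell in both states (-1.07 and -1.84), as did CDH3, P-cadherin (-1.06 and -0.56), the desmosomal plaque gene DSP (-0.62 and -1.04) and the polarity genes SCRIB (-0.68 and -0.85) and PATJ (-0.4 and -0.86). Under bortezomib 11 were higher and 4 lower in Lo19S cells (median 0.08), led by ERBB3 (0.72), PATJ (0.63) and RAB25 (0.58) and by CDH3 (-0.54), F11R (-0.51) and JUP (-0.22). Under DMSO 5 were higher and 3 lower (median -0.02), led by DSC2 (0.38), PRSS8 (0.27) and RAB25 (0.24) and by CDS1 (-0.19), DSP (-0.12) and ST14 (-0.12).

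Of 24 other mesenchymal and matrix genes, 15 were tested; CDH2, CDH11, SPARC, TNC, FBN1, LOXL2, MMP2, MMP9 and AXL were not. With bortezomib 4 rose and 9 fell in Lo19S cells (median -0.67), and 5 rose and 8 fell in control cells (median -0.48). ACTA2, smooth muscle actin, was at 7.13 ± 1.26 CPM with bortezomib against 48.6 ± 2.01 with DMSO in Lo19S cells, and at 17.7 ± 2.65 against 174 ± 11.8 in control cells. S100A4 fell too (-2.51 and -3.08), as did LOX, a collagen cross-linking enzyme (5 counts against 38 in Lo19S cells, 12 against 62 in control cells). The collagen gene COL4A1 rose at low counts, with 24 counts with bortezomib against 6 with DMSO in Lo19S cells (2.14) and 56 against 6 in control cells (3.57). TGFBI (2.08 and 2.19) and the collagen gene COL6A2 (1 and 2.46) rose as well. Lo19S cells had 1 of these genes higher and 11 lower than control cells under bortezomib (median -0.73), where 22% of all genes were higher and 21.2% lower, and 0 higher and 7 lower under DMSO (median -0.54), where 11.7% were higher and 13% lower. COL6A2 (-1.49), COL4A1 (-1.39) and ACTA2 (-1.37) led the lower genes under bortezomib, with S100A4 (0.55) higher, and ACTA2 (-1.84), CALD1 (-0.96) and TGFBI (-0.92) under DMSO.

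Of 20 other repressors and partners of the transition, 15 were tested and ZEB2, TWIST2, PRRX1, FOXC2 and FOXQ1 were not. With bortezomib 3 rose and 11 fell in Lo19S cells (median -0.79), and 3 rose and 12 fell in control cells (median -0.91). ID1 fell (-2.19 and -3.15). The other falls named here, of TCF4, HMGA2 and SNAI3, rested on low counts. Some falls of genes not named here were at higher counts. TCF4, a basic helix-loop-helix factor (-4.13 and -3.1), had 6 counts against 128 in Lo19S cells and 10 against 120 in control cells. HMGA2 (-2.76 and -1.58) had 16 against 128 in Lo19S cells and 29 against 118 in control cells. SNAI3 had 7 against 39 in Lo19S cells and 10 against 54 in control cells. SOX9 (1.06 and 1.22) and FOXC1 (0.8 and 1.4) rose, and SOX4 was called higher (0.15 and 0.22) but lower with library totals (-0.14 and -0.16). Lo19S cells had 4 higher and 4 lower under bortezomib (median -0.24), led by ID1 (1.04), KLF8 (0.44) and CTBP2 (0.33) and by ID2 (-1.09), SOX9 (-0.73) and FOXC1 (-0.44); ID1 and ID2 inhibit helix-loop-helix factors. Under DMSO KLF8 (0.25) was higher and SOX9 (-0.57) and TCF3 (-0.15) were lower (median 0.03).

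Of 23 TGF-beta, BMP and SMAD genes, 21 were tested, and with bortezomib 6 rose and 11 fell in Lo19S cells (median -0.42) and 4 rose and 12 fell in control cells (median -0.62). The ubiquitin ligases SMURF1 and SMURF2 rose by 1.56 and 1.14 in Lo19S cells and by 1.75 and 1.38 in control cells, and SKIL, a SMAD corepressor, by 0.72 and 0.91. The ligand TGFB3 (-2.92 and -2.99), the inhibitory SMAD7 (-2.98 and -2.12) and the co-receptor TGFBR3 (-2 and -2.92) fell. SMAD7 had only 15 counts against 139 in Lo19S cells and 17 against 102 in control cells. TGFBR3 had 23 against 108 in Lo19S cells and 16 against 167 in control cells. SMAD6, also an inhibitory SMAD, had 0 counts with bortezomib in both states, against 129 in Lo19S cells and 168 in control cells with DMSO. Between the states 3 were higher and 6 lower in Lo19S cells under bortezomib (median 0), led by SMAD1 (0.44), TGFB2 (0.39) and BMPR2 (0.35) and by BMP4 (-0.46), SMAD3 (-0.3) and SMURF2 (-0.29). Under DMSO SKIL was higher (0.19) and 7 were lower (median -0.07), led by TGFB2 (-0.74), BMP7 (-0.67) and TGFBR3 (-0.58).

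Of 21 genes for receptors and synthesis of fibronectin and hyaluronan, 15 were tested, and with bortezomib 6 rose and 7 fell in Lo19S cells (median 0.06) and 6 rose and 8 fell in control cells (median -0.24). MSN, moesin, which tethers CD44 to actin, was at 2.61 ± 0.507 CPM with bortezomib against 0.257 ± 0.13 with DMSO in Lo19S cells, and at 3.31 ± 0.8 against 0.169 ± 0.148 in control cells. The syndecan SDC4 (1.67 and 1.87) and the integrin subunit ITGAV (1.1 and 0.95) rose. The hyaluronidase genes HYAL3 (-1.91 and -2.59), HYAL1 (-1.72 and -0.96) and HYAL2 (-1.35 and -1.54), the hyaluronan synthase HAS3 (-1.51 and -1.13) and the hyaluronan receptor HMMR (-1.4 and -2.24) fell. HYAL3, HYAL1 and HAS3 did so at low counts, 18 to 52 in a group with bortezomib. Between the states 6 were higher and 3 lower in Lo19S cells under bortezomib (median 0.13), led by ITGB6 (0.52), HMMR (0.41) and ITGB5 (0.29) and by SDC1 (-0.44), SDC4 (-0.27) and ITGB1 (-0.13). Under DMSO ITGB6 (0.51) and ITGA5 (0.38) were higher and 4 were lower (median -0.06), led by HMMR (-0.43), SDC1 (-0.34) and ITGB1 (-0.32); ITGA5 and ITGB1 encode subunits of the main fibronectin receptor.

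The last list holds 13 genes whose products add ubiquitin or phosphate to SNAI1, SNAI2 or ZEB1 protein, or remove ubiquitin, and 10 were tested. USP27X and DUB3, the genes for removal of ubiquitin, were not found by symbol, and PRKD1 was not tested. With bortezomib 8 rose and 1 fell in Lo19S cells (median 0.44), where 37.8% of all genes were called higher and 39.7% lower (77.5% in all). In control cells 9 rose and 1 fell (median 0.47), where 39.2% of all genes were called higher and 42.2% lower (81.4% in all). FBXL14, a ubiquitin ligase subunit for SNAI1, fell (-1.36 and -0.94). The kinases CSNK1A1 (0.7 and 0.84) and GSK3B (0.64 and 0.54) rose, as did the ubiquitin ligase genes MDM2 (0.52 and 0.25), FBXO11 (0.46 and 0.64) and FBXW7 (0.46 and 0.64). Between the states MDM2 (0.22) was higher and FBXL14 (-0.54), FBXO45 (-0.28) and GSK3A (-0.18) were lower in Lo19S cells under bortezomib (median -0.1), and FBXO45 (-0.18) was lower under DMSO (median -0.04).

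The genes whose pattern over the 12 libraries was most like each member's were found by the root mean square difference of log2 CPM, each gene centred on its mean. For CD44, whose own deviation about its mean was 1.208, they were ERRFI1 at 0.071, JMJD1C at 0.1 and ELL2 at 0.103. For GRHL2 (1.099) they were AHNAK at 0.1, AGR2 at 0.11 and PNKD at 0.113. CDH1 (0.299) lay nearest to CCT3, YME1L1 and SEC61A1, at 0.03 to 0.035, and EPCAM (0.448) nearest to TRIP12, ABLIM1 and EIF2A, at 0.039 to 0.046. ESRP1 (0.134) lay nearest to NDUFS1, ERC1 and EXOC4, at 0.037 to 0.047, and FN1 (0.242) nearest to FAM216A, FANCA and PLCD3, at 0.072 to 0.076. For the members with few counts the nearest genes were farther off, at 0.266 to 0.306 for VIM (DSP-AS1, ARHGEF40 and SEPTIN6), 0.238 to 0.271 for ZEB1 (GCNT3, ETV5 and CD55) and 0.282 to 0.358 for SNAI1 (KIF5A, ZNF486 and SCARF2). No member was among the nearest genes of another. These distances are descriptions over libraries that share groups, and carry no test.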

How the data were processed

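The authors deposited whole-number read counts per gene, 1 file per library, without normalization, for 57773 Ensembl genes in 12 libraries of 7376597 to 15003480 counts; CPM values were computed from them. The submitters' processing notes list STAR 2.5.4b, featureCounts 1.6.1 and GRCh37; per the labels' protocols the kit was stranded and polyA-selected. How the counting treated strand and multi-mapping reads is not stated.

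Symbols came from an Ensembl table. Counts were filtered with filterByExpr (14714 genes kept), scaled with TMM factors and fitted with 1 coefficient per group over all 12 libraries with edgeR 4.0.16 (quasi-likelihood, robust; R 4.3.3), with Benjamini-Hochberg adjustment over all genes in each of 5 comparisons and calls at an adjusted p below 0.05. SEs were derived from each log2 fold change and its F statistic, and approximate 95% intervals from the SE by the normal approximation. Low-count ratios have exact conditional binomial intervals. The script was tested on simulated counts. Alternatives were RLE factors, library totals, DESeq2 1.42.0, no low-count filter, only the 2 groups compared, a replicate block and each library left out. The members and lists were chosen with earlier results of these data known. All 10 members are named. List genes are named from the 3 called with the largest change in each direction, per list and comparison, with their value in the other state, and pattern neighbours as the 3 nearest. Some genes of the lists are not reported here and are left out of the list counts.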

Additional observations from a re-analysis of the deposited data

Results flagged for a closer look

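The responses to bortezomib differed between Lo19S and control cells, by the interaction test of edgeR, for 3 members: GRHL2 by 1.17 on the log2 scale, ESRP1 by 0.39 and CD44 by -0.74 (Lo19S minus control). Among the other epithelial transcription factors ELF5 differed by 1.86, GRHL3 by 1.46, TFAP2C by 1.24 and KLF5 by -0.85. Among epithelial adhesion and polarity genes ERBB3 differed by 0.77, CDS1 by 0.63, PATJ by 0.46, CDH3 by -0.51, F11R by -0.44 and JUP by -0.33. Among mesenchymal and matrix genes COL6A2 differed by -1.46, MYL9 by -0.23, S100A4 by 0.57, ACTA2 by 0.47 and TPM1 by 0.2. Among repressors and partners ID2 differed by -1.1, FOXC1 by -0.6, ID1 by 0.95 and CTBP2 by 0.31. In the TGF-beta list TGFB2 differed by 1.14, SMAD1 by 0.49, SMAD4 by 0.36, BMP4 by -0.69 and SMURF2 by -0.24. In the fibronectin and hyaluronan list HMMR differed by 0.85, ITGB5 and EZR by 0.33 each, ITGA5 by -0.32 and SDC4 by -0.19, and of the genes acting on the repressor proteins MDM2 differed by 0.26. All had an adjusted p below 0.05 because only called genes are named here. Of all genes tested 27.8% were called, 14.4% higher and 13.4% lower. Called higher and lower were 9 and 3 of 24 adhesion and polarity genes and 9 and 1 of 13 factors. They were 3 and 2 of 15 mesenchymal and matrix genes and 2 and 2 of 15 repressors and partners. In the TGF-beta list they were 5 and 2 of 21, and in the fibronectin and hyaluronan list 5 and 2 of 15. Of the 10 tested genes acting on the repressor proteins, 1 was called. The ITGA5 call was lost in most alternatives run.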

How the results depend on the processing

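Of 794 values of the members in alternatives, 747 kept their direction and side of the threshold, 18 lost a call, 9 gained one and 20 changed sign. With library totals FN1 changed sign in control cells with bortezomib (-0.23), ESRP1 in Lo19S cells with bortezomib (-0.2), EPCAM between the states under bortezomib (0.08) and CDH1 in the difference of responses (0.08); SOX4 became -0.16 in control cells and -0.14 in Lo19S cells. CDH1 between the states under bortezomib was 0 with RLE factors and with DESeq2, and its difference of responses 0 without the low-count filter. With each library left out in turn, the number of members called ran from 2 to 4 for Lo19S against control under DMSO, 6 to 7 for bortezomib in Lo19S cells, 8 to 9 in control cells, 5 to 5 for Lo19S against control under bortezomib and 3 to 4 for the difference. Uncalled values that changed sign when a library was left out were VIM under DMSO (-0.23 to 0.13), ZEB1 under DMSO (-1.73 to 2.52), SNAI1 with bortezomib in Lo19S cells (-0.64 to 0.03), ZEB1 (-0.02 to 0.07) and VIM (-0.24 to 1.29) between the states under bortezomib, and CDH1 (-0.04 to 0), ZEB1 (-2.49 to 1.76) and VIM (-0.21 to 1.32) in the difference. The cause was not tested. Of 3009 values of list genes named, 2896 were the same and 111 lost a call. With the replicate number as a block, 3445 genes were called under DMSO instead of 3628, and no member's call changed. Same-numbered libraries correlated between -0.0722 and 0.0256 in their deviations from group means over all genes tested. No shared effect of the replicate number was seen. These correlations cannot exclude pairing, because noise of low-count genes enters them with equal weight. Depth limits what VIM, ZEB1, SNAI1 and SNAI2 show.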
